A study of Mus musculus with 13 samples.

Results

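The genes described here build centrioles and organise the poles of the mitotic spindle. They are the kinase Plk4, its partners Stil, Sass6, Cep152, Cep192, Cenpj and Cep135, and Haus4, a subunit of the augmin complex. They are 8 of the 22180 genes measured, and each is read by 1 probe set of an expression array that names that gene alone. The members were chosen by their known roles and by earlier results of these same arrays, namely the log2 differences of MDP CD103 high cells from MDP CD103 low and PBS CD103 high cells. Their values in those comparisons are therefore a description, the p-values printed there are those of a fit over all genes, and no count of them supports a claim about centriole genes as a class.

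A centriole is a short barrel of microtubules, and a pair of centrioles surrounded by a protein matrix forms the centrosome. Cells copy their centrioles a single time in each cell cycle, starting as DNA replication begins, and the copied centrosomes then move apart to form the poles of the spindle. Plk4 starts the process at a site prepared by Cep152 and Cep192. It phosphorylates Stil, which recruits Sass6 to the cartwheel, the scaffold that gives the new centriole its symmetry, while Cenpj and Cep135 link that scaffold to microtubules and set their length. Augmin acts later, in mitosis, where it branches new microtubules off existing ones. Transcripts of many of these genes are known to be scarce in resting cells and to rise in cycling cells.

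RNA came from dendritic cells of the CD205+CD8+ type, sorted from spleens of C57Bl/6 littermates whose labels give the sex as male. All mice, controls included, carried a B16 melanoma engineered to release Flt3L, which makes dendritic cells multiply, injected under the skin at 6 weeks of age. On day 5 the mice received an intraperitoneal injection of PBS (100 ul), either alone or carrying 50 ug of MDP, the muramyl dipeptide of bacterial peptidoglycan sensed by NOD2. Spleens were taken 24 h later, and the sort also split the cells by surface CD103, an integrin chain encoded by Itgae. The 13 arrays form the groups MDP CD103 high (n = 3), MDP CD103 low (n = 3), PBS CD103 high (n = 3) and PBS CD103 low (n = 4). All values below are log2 values or log2 differences on the authors' RMA scale, where a difference of 1 is a doubling. Whether the arrays stand for separate mice is not stated, and the p-values then measure only how far these samples spread, which may be technical.

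The arrays fitted their sort labels in most respects. Of 12 listed markers of type 1 conventional dendritic cells, 11 were measured and all 11 lay above 5.12, the 95th percentile of 1105 olfactory receptor genes, which served as a measure of background. Of the measured markers of other cells, those of neutrophils (2 of 11), B cells (2 of 9), T cells (3 of 9), natural killer cells (2 of 8), erythroid cells (1 of 6) and B16 melanoma (3 of 8) seldom lay above it. More did among genes of plasmacytoid (9 of 11) and type 2 conventional dendritic cells (6 of 10) and of monocytes and macrophages (8 of 12). Some of these markers passed the test in comparisons with MDP CD103 high cells, and these ran opposite to the 8 genes. Against PBS CD103 high cells the plasmacytoid markers Cd300c (-0.96 ± 0.14 SE, limma adjusted p = 0.0052) and Pacsin1 (-0.77 ± 0.14, limma adjusted p = 0.013) and the B cell marker Fcrla (-0.72 ± 0.10, limma adjusted p = 0.00491) were lower in MDP CD103 high cells. Cd300c, Pacsin1 and Fcrla also passed the test as higher in PBS CD103 high than in PBS CD103 low cells. The plasmacytoid list averaged 6.55 in MDP CD103 high, 6.65 in MDP CD103 low, 6.75 in PBS CD103 high and 6.57 in PBS CD103 low cells. Between the MDP subsets Sirpa, of type 2 dendritic cells, was lower in MDP CD103 high cells (-0.50 ± 0.09, limma adjusted p = 0.0308). The part of these cells in the results was not tested. Itgae averaged 11.35 in MDP CD103 high and 10.13 in MDP CD103 low cells, and 10.15 in PBS CD103 high and 7.92 in PBS CD103 low cells. The CD103 low cells of MDP mice thus held about as much Itgae transcript as the CD103 high cells of PBS mice. Against the label of male sex, Xist lay between 10.98 and 11.21 on 7 arrays and between 4.47 and 6.69 on the other 6, and every group held arrays of both kinds. Among the MDP CD103 low arrays, replicate 1 was the richest in transcripts of mature, CCR7-positive dendritic cells (mean of 13 genes 8.82, the others 7.62 and 7.68). Results that rest on this array are given with and without it.

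Transcription of genes used for cell division is often controlled by E2F factors, by the CHR element read by the DREAM and MuvB complexes, and by CCAAT boxes bound by NF-Y. The promoter windows of RefSeq (build GRCm38.p6) run from 250 bases before to 50 bases after the start site, and 7 of the 8 genes have one there. E2F-type letters (the letters TTCCCGC and the letters TTCGCGC, and with TTGCCGC searched next and then TTGGCGC, all on either strand) were found in 4 of the 7, against 9.57% of the 32851 windows in the table. CHR letters (TTTGAA or TTTAAA, either strand) were found in 3 of 7, against 27.6%, and CCAAT in 4 of 7, against 37.4%. Such matches are letters in a window and show neither binding nor activity, and no rate was tested. Below are the windows of the 3 genes that passed the test in any comparison, and of Cep135, which had the smallest difference in both main comparisons. Sequences run 5′ to 3′ on the strand of the gene, and capitals mark the matches, which do not overlap each other.
Stil, chr4:114999868-115000167, plus strand: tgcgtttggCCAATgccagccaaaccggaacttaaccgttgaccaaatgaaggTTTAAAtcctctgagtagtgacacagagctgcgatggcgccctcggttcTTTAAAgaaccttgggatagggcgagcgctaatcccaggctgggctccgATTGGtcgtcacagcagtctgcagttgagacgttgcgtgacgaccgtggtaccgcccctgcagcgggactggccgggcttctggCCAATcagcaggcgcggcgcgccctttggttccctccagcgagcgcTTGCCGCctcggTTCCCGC
Plk4, chr3:40799701-40800000, plus strand: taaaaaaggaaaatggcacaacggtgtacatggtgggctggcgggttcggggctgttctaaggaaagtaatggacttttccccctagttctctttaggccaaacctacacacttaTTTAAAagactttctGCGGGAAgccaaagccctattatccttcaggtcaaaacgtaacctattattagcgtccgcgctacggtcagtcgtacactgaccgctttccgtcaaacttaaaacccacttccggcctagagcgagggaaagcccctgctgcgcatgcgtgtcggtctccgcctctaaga
Haus4, chr14:54554312-54554611, minus strand: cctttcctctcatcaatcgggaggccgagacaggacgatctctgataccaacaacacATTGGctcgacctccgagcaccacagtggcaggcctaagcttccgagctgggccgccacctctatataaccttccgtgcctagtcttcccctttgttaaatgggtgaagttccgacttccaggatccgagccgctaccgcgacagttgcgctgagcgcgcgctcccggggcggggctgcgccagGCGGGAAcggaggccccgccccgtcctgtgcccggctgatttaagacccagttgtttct
Cep135, chr5:76588449-76588748, plus strand: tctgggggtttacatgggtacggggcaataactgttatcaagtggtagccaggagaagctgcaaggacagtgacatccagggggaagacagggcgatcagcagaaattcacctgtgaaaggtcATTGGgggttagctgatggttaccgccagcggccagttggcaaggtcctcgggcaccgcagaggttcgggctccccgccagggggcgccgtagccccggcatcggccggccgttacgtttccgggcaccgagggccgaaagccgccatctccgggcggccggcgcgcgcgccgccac

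The Stil window held 2 E2F-type, 2 CHR and 3 CCAAT matches, with both E2F-type matches after the start site, at +32 and +44. The Plk4 window had a CHR match at -135 and an E2F-type match on the opposite strand at -120. In the Haus4 window an E2F-type match on the opposite strand began at -9. Cep152 carried the same TTCCCGC letters at -174 and 3 CCAAT matches, Sass6 a TTTGAA at -159, and Cenpj none of the letters searched. Cep135 had a single CCAAT match.

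Levels of the duplication genes were highest in MDP CD103 high cells. Stil (probe set 17417117, Entrez gene 20460), the scaffold that activates Plk4, had 8.55, 8.43 and 8.30 in MDP CD103 high cells and 6.90, 7.61 and 7.46 in MDP CD103 low cells. It had 7.76, 7.46 and 7.19 in PBS CD103 high cells and 7.68, 7.68, 7.72 and 7.41 in PBS CD103 low cells. The 3 MDP CD103 high arrays lay above all 10 others, the other groups overlapped, and the lowest value was that of MDP CD103 low replicate 1. Plk4 (probe set 17397268, Entrez gene 20873) had 8.63, 8.51 and 8.48 in MDP CD103 high cells and 7.95, 8.22 and 8.14 in MDP CD103 low cells. It had 8.23, 8.07 and 7.83 in PBS CD103 high cells and 8.21, 8.22, 8.10 and 8.04 in PBS CD103 low cells. The same 3 arrays were again above all others, and the other groups overlapped.

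Haus4 (probe set 17306384, Entrez gene 219072) showed the tightest values. It had 8.43, 8.45 and 8.41 in MDP CD103 high cells and 7.99, 7.96 and 7.92 in MDP CD103 low cells. It had 8.05, 7.84 and 7.81 in PBS CD103 high cells and 7.95, 7.86, 7.96 and 7.80 in PBS CD103 low cells. Here too the MDP CD103 high arrays stood above all 10 others, and the SD within that group was 0.02.

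Sass6 (probe set 17402052), the cartwheel protein, had 7.77, 7.83 and 7.80 in MDP CD103 high cells and 7.44, 7.52 and 7.63 in MDP CD103 low cells. It had 7.70, 7.57 and 7.63 in PBS CD103 high cells, and between 7.26 and 7.65 in PBS CD103 low cells. The MDP CD103 high arrays were above all others by a narrow margin, since PBS CD103 high replicate 4 reached 7.70. In all, 4 of the 8 genes (Stil, Plk4, Sass6 and Haus4) had every MDP CD103 high array above the 10 arrays of the other groups, as 2.11% of all genes did.

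The remaining genes varied more or overlapped. Cenpj (probe set 17307046), which sets centriole length, had 7.45, 7.58 and 7.25 in MDP CD103 high cells and 7.05, 7.21 and 7.21 in MDP CD103 low cells. It ranged from 7.06 to 7.14 in PBS CD103 high and from 6.89 to 7.25 in PBS CD103 low cells. Cep192 (probe set 17351511), which brings Plk4 and the spindle kinases to the centrosome, had 8.57, 8.40 and 8.10 in MDP CD103 high cells and 8.07 to 8.15 in MDP CD103 low cells. It had 8.08, 7.83 and 7.84 in PBS CD103 high cells and 8.06 to 8.10 in PBS CD103 low cells. For both genes MDP CD103 high replicate 4 was close to the other groups and the other arrays of its group were above them.

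Cep152 (probe set 17390950), the docking partner of Plk4, had 6.84, 6.72 and 6.50 in MDP CD103 high cells and 6.39, 6.37 and 6.50 in MDP CD103 low cells. It ranged from 6.36 to 6.55 in PBS CD103 high and from 6.50 to 6.61 in PBS CD103 low cells, so that MDP CD103 high replicate 4 lay among the other groups. Cep135 (probe set 17438361), which ties the cartwheel to the microtubules, ranged from 7.13 to 7.29 in MDP CD103 high and from 6.97 to 7.19 in MDP CD103 low cells. It ranged from 6.99 to 7.31 in PBS CD103 high and from 6.98 to 7.17 in PBS CD103 low cells, and all 4 groups overlapped. All 8 genes lay above the background value of 5.12 on every array.

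**Figure D1:**
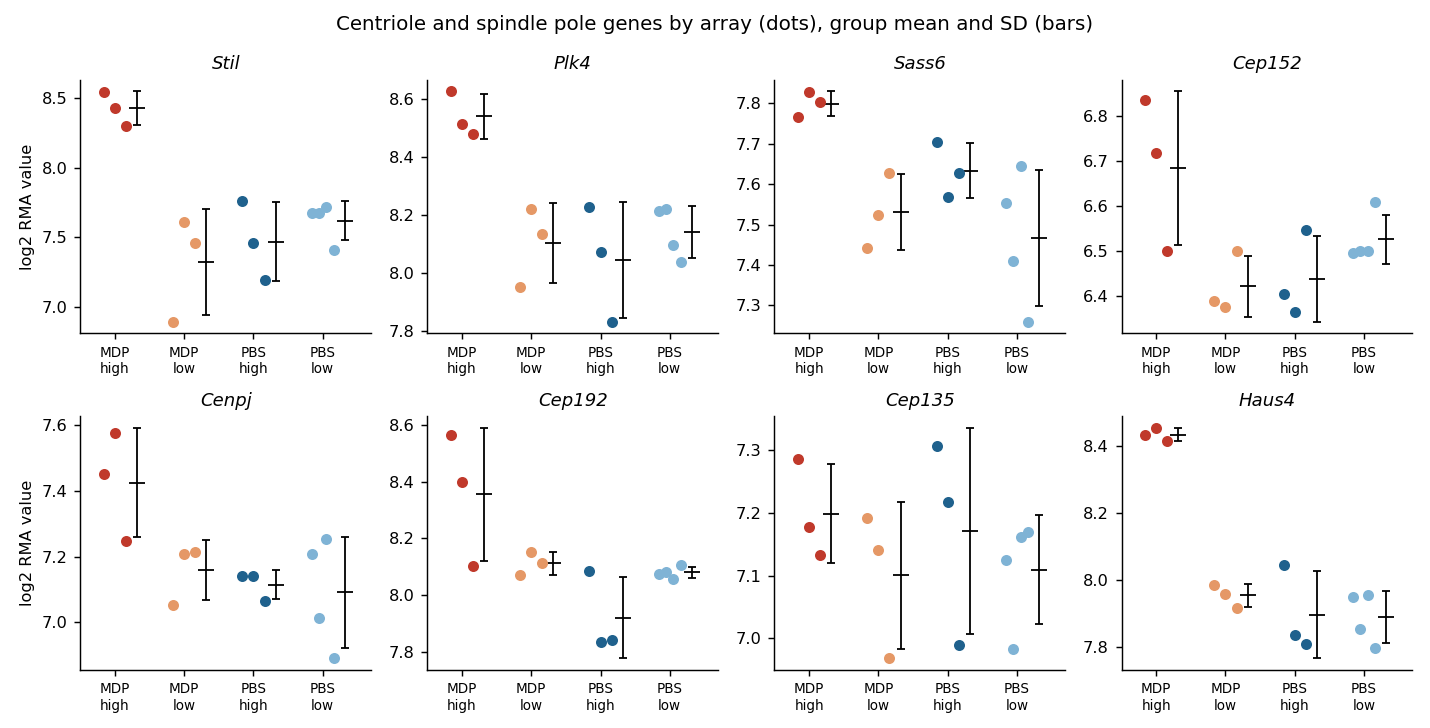
Log2 RMA value of each gene (vertical axis, a scale of its own in each panel) on each of the 13 arrays (dots), by group along the horizontal axis, with group mean and SD as bars. The 3 MDP CD103 high arrays are above all other arrays for Stil, Plk4, Sass6 and Haus4, and the groups overlap for Cep135.

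The order of the group means put MDP CD103 high cells first for all 8 genes. For Stil and Plk4 the next group was PBS CD103 low, with gaps of 0.81 and 0.40 and no overlap of arrays. For Cenpj and Haus4 it was MDP CD103 low, with gaps of 0.27 and 0.48 and no overlap, and for Sass6 it was PBS CD103 high, with a gap of 0.17 and no overlap. For Cep152, Cep192 and Cep135 the arrays of the first group overlapped those of the next. Below the first place, neighbouring groups overlapped for every gene, and their order differs between genes.

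Between the CD103 subsets of MDP mice, Stil was 2.15-fold higher in MDP CD103 high than in MDP CD103 low cells, with means of 8.43 ± 0.12 and 7.32 ± 0.38 (SD, n = 3 each). The log2 difference was 1.10 ± 0.18 (SE, limma adjusted p = 0.0204 over all 22180 genes). Haus4 was 1.39-fold higher, at 8.43 ± 0.02 against 7.95 ± 0.03, a log2 difference of 0.48 ± 0.08 (limma adjusted p = 0.0216). These 2 genes passed and none of the 8 was lower, where 0.473% of all genes were called higher. In 5 of the 8 genes every MDP CD103 high array was above every MDP CD103 low array, as in 6.43% of all genes. All 8 differences were above 0, with a median of 0.27, while the median over all genes was -0.01 and 45.7% of all genes lay above 0. Stil ranked 7th of all genes by the size of its rise.

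The other genes did not pass in this comparison. Plk4 was nearest, with a log2 difference of 0.44 ± 0.11 (SE, 95% interval 0.21 to 0.66, limma adjusted p = 0.107). Without MDP CD103 low replicate 1 its difference was 0.36. Sass6, Cep152, Cenpj and Cep192 had differences between 0.24 and 0.27, with limma adjusted p from 0.306 for Cep152 to 0.453 for Cep192. Their intervals reached up to 0.50 for Cenpj. The value of Cep192 rested on single arrays, being 0.14 without MDP CD103 high replicate 2 and 0.37 without replicate 4 of that group. For Cep135 the difference was 0.10, with a 95% interval of -0.11 to 0.31. Differences of that size are near the median SE of 0.11 that the number of arrays gives in this comparison.

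The calls rested on few arrays. Without MDP CD103 low replicate 1, the array rich in mature genes, Stil differed by 0.89 (limma adjusted p = 0.0574) and Haus4 by 0.49 (limma adjusted p = 0.062), so that neither passed. Neither passed without MDP CD103 high replicate 2 or replicate 3, or in a fit limited to the 6 MDP arrays, and Haus4 alone lost its call without MDP CD103 high replicate 4 or MDP CD103 low replicate 3.

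MDP CD103 high against PBS CD103 high cells compares the same gate with and without MDP. The sort followed the injection, so the cells that fall in a gate may differ with treatment, and the comparison shares its MDP CD103 high arrays with the one above. Stil rose 1.94-fold, to 8.43 ± 0.12 in MDP mice against 7.47 ± 0.28 in PBS mice (SD, n = 3 each), a log2 change of 0.96 ± 0.18 (SE, limma adjusted p = 0.0162). Haus4 rose 1.45-fold, by 0.54 ± 0.08 (limma adjusted p = 0.0052), and Plk4 1.41-fold, by 0.49 ± 0.11 (limma adjusted p = 0.0328). Thus 3 of the 8 genes passed, all higher, where 1.42% of all genes were called higher. In 6 of the 8 genes every MDP CD103 high array was above every PBS CD103 high array, as in 8.96% of all genes. All 8 differences were above 0, against 46.3% of all genes. The median of the 8 was 0.37 and that of all genes -0.01.

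Cep192 narrowly missed the threshold, at 0.44 ± 0.11 (SE, limma adjusted p = 0.0604). It passed in 5 of 22 alternatives, such as array weights (limma adjusted p = 0.0303) and without MDP CD103 high replicate 4 (limma adjusted p = 0.0165). Its change was 0.33 without MDP CD103 high replicate 2, and its limma adjusted p reached 0.219 with 1 array left out. Cenpj differed by 0.31, Cep152 by 0.25 and Sass6 by 0.17, with limma adjusted p from 0.211 to 0.504. The change of Cep135 was 0.03, with a 95% interval of -0.18 to 0.24, and it was -0.02 without MDP CD103 high replicate 2 and -0.06 without PBS CD103 high replicate 6. Only Haus4 kept its call without any 1 of the 13 arrays. The calls of Stil and Plk4 were lost without MDP CD103 high replicate 2 or 3, or without PBS CD103 high replicate 5 or 6, and that of Plk4 also without MDP CD103 high replicate 4 or in a fit limited to the 6 arrays compared.

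In the absence of MDP, none of the 8 genes passed between PBS CD103 high and PBS CD103 low cells in limma, and none had an unadjusted p under 0.05, as 8.52% of all genes did. Their differences ran from -0.16 for Cep192 to 0.17 for Sass6, with 4 above and 4 below 0. Over all genes, 0.0766% were called. The interval for Stil was -0.51 to 0.21 and that for Haus4 -0.15 to 0.16.

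MDP CD103 low against PBS CD103 low cells gave the same count of 0 in limma, again with 0 at an unadjusted p under 0.05 (6.06% of all genes), where 0.00451% of all genes were called. Stil had the largest difference, -0.30 ± 0.17 (SE, limma adjusted p = 0.826), which became -0.08 without MDP CD103 low replicate 1. The other 7 genes lay between -0.10 and 0.07. Haus4 differed by 0.06, with a 95% interval of -0.09 to 0.22.

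The test of whether the MDP response differed between the gates is the interaction. It contains the differences by which the members were chosen, and that choice favours positive values here. Its values and counts for these genes are therefore a description as well. Stil had the largest value, a response larger by 1.25 ± 0.24 in the CD103 high gate than in the CD103 low gate (SE, limma adjusted p = 0.0824, unadjusted p = 0.000182). Plk4 had 0.53 ± 0.14 (limma adjusted p = 0.191), Haus4 0.47 ± 0.11 (0.109), Cep192 0.40 ± 0.15 (0.385) and Cep152 0.35 ± 0.12 (0.362). No gene of the 8 passed in limma, where 0.0721% of all genes did, while 5 of the 8 had an unadjusted p under 0.05, as 9.63% of all genes did. Stil passed when same-numbered arrays of a treatment were taken as a random block, at 1.23 ± 0.22 (limma adjusted p = 0.0499), and without PBS CD103 high replicate 4 (a difference of 1.4, limma adjusted p = 0.0325). Without that array Haus4 passed as well (0.55, limma adjusted p = 0.0401). In all, Stil passed in 4 and Haus4 in 2 of the 21 alternatives run. With 1 array left out, their limma adjusted p reached 0.215 and 0.266. Among these fits the value of Stil was lowest, at 1.04, without MDP CD103 low replicate 1.

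**Figure D2:**
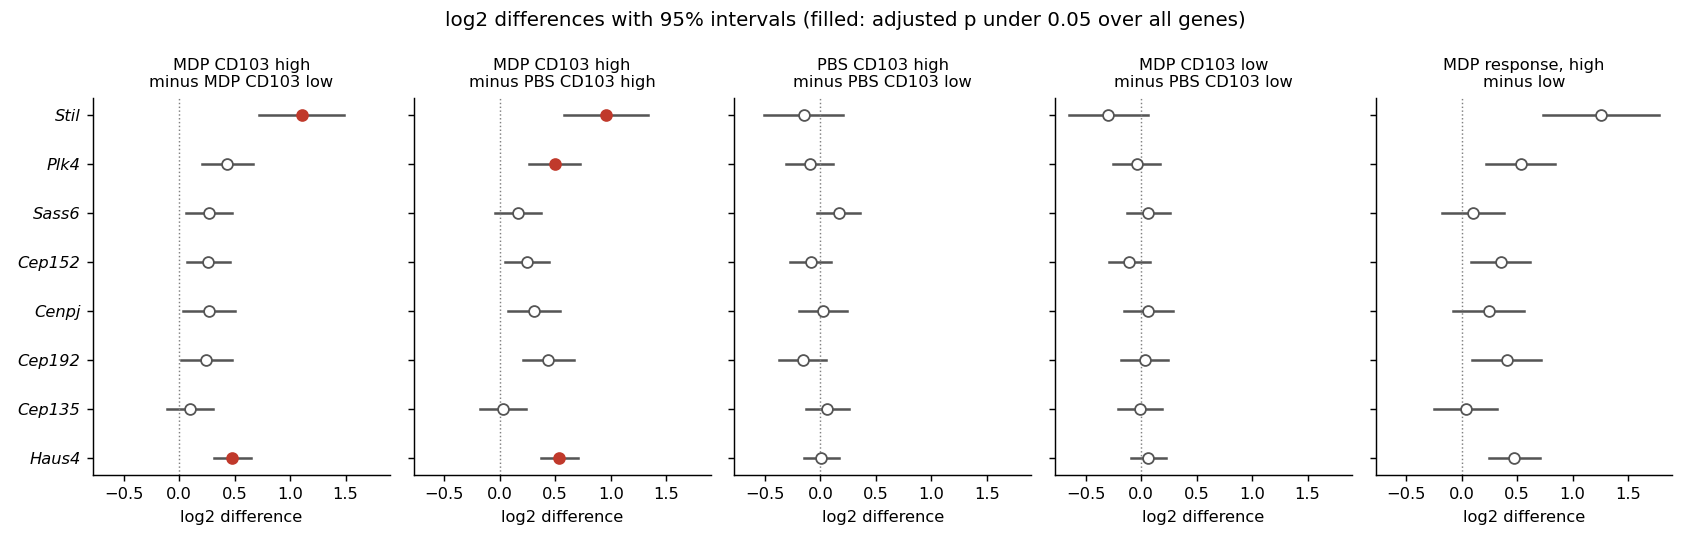
Log2 difference (horizontal axis) of each of the 8 genes (rows) in 5 comparisons (panels), with 95% intervals from the fit as lines and filled dots where the adjusted p was under 0.05 over all genes. Filled dots are Stil and Haus4 in the first panel and Stil, Plk4 and Haus4 in the second, and in the panels of differences from PBS CD103 low cells all 8 intervals include 0.

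Same-numbered arrays of the same treatment gave a view within pairs. In MDP mice Stil was higher in the CD103 high array by 0.93 in pair 2 and 0.97 in pair 3, and Haus4 by 0.47 and 0.54. All 8 genes were higher in the CD103 high array of both pairs. In PBS mice Stil differed by 0.04 in pair 4 and -0.22 in pair 6, and Haus4 by 0.09 and 0.01. Sass6 was also higher in the CD103 high array of both PBS pairs, by 0.06 and 0.37, against 0.24 and 0.20 in the MDP pairs. Cep152 differed by -0.10 and -0.06 in the PBS pairs. Plk4, Cenpj, Cep192 and Cep135, like Stil, changed sign between these pairs.

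The differences were also taken within each class of sex chromosome transcripts. Among arrays with high Xist, Stil was higher by 0.90 in MDP CD103 high (n = 2) than in MDP CD103 low cells (n = 1), and among those with low Xist by 1.29 (n = 1 against 2). For Haus4 the values were 0.52 and 0.46. Against PBS CD103 high cells, Stil was higher by 0.76 with high Xist (n = 2 each) and 1.36 with low Xist (n = 1 each), and Haus4 by 0.49 and 0.62. With the Xist class as a covariate the difference between the MDP subsets was 1.05 for Stil (limma adjusted p = 0.0414) and 0.46 for Haus4 (limma adjusted p = 0.0423).

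The augmin complex has 8 subunits, and Haus4 was not alone in it. Of the 7 others, 6 had a probe set of their own. All 6 had a positive difference between MDP CD103 high and MDP CD103 low cells (45.7% of all genes), with a median of 0.37. Haus6 was higher by 0.69 ± 0.12 (SE, limma adjusted p = 0.0245) and Haus5 by 0.52 ± 0.09 (limma adjusted p = 0.0292). These 2 of the 6 passed, where 0.473% of all genes were called higher. Haus6 had 8.61, 8.52 and 8.51 in MDP CD103 high cells and 7.57, 8.02 and 7.97 in MDP CD103 low cells. It had 7.74 to 7.97 in PBS CD103 high and 7.87 to 8.14 in PBS CD103 low cells. Every MDP CD103 high array was thus above the arrays of the other groups.

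Haus5 had 8.09, 8.27 and 8.03 in MDP CD103 high cells and 7.65, 7.56 and 7.62 in MDP CD103 low cells. In PBS CD103 high cells it had 7.37 to 7.59, and in PBS CD103 low cells 7.35 to 7.63. Against PBS CD103 high cells, Haus6 rose by 0.69 ± 0.12 (limma adjusted p = 0.0106), Haus5 by 0.62 ± 0.09 (limma adjusted p = 0.00639) and Haus1 by 0.58 ± 0.10 (limma adjusted p = 0.0146). These 3 passed, where 1.42% of all genes were called higher. Haus7 (0.26), Haus8 (0.18) and Haus2 (-0.13) did not pass there, with limma adjusted p from 0.344 to 0.694. Haus2 had overlapping groups in both comparisons. Neither Haus5 nor Haus6 passed between the MDP subsets without MDP CD103 low replicate 1 or without any 1 of the 3 MDP CD103 high arrays. Haus5 also missed the threshold there without MDP CD103 low replicate 2 or 3 or PBS CD103 low replicate 1, with the Xist class as a covariate, and with arrays centred on their median, and both genes missed it in a fit limited to the 6 MDP arrays. Against PBS CD103 high cells, 1 call of the 3 was left without MDP CD103 high replicate 2 or PBS CD103 high replicate 5 or 6.

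**Figure D3:**
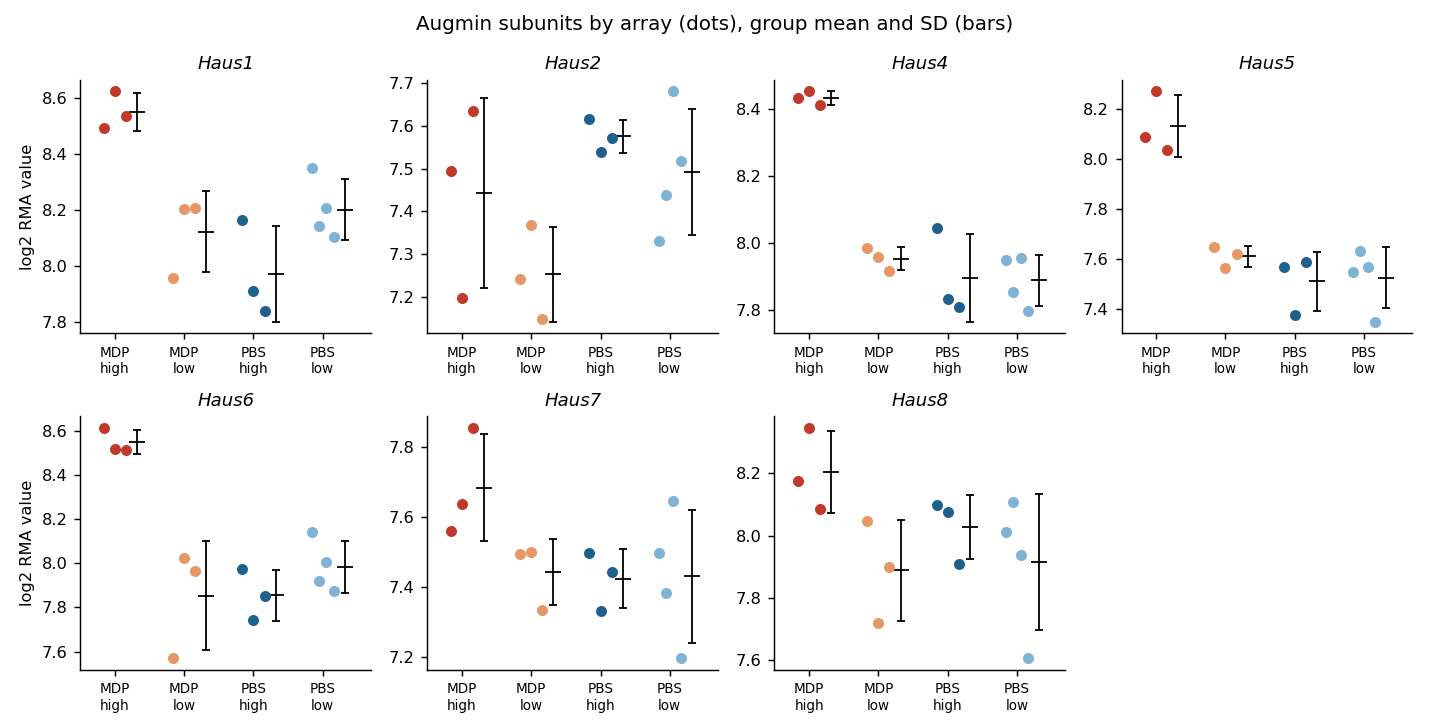
Log2 RMA value (vertical axis) of the 7 measured augmin subunits on each array (dots), by group along the horizontal axis, with group mean and SD as bars. Haus1, Haus4, Haus5 and Haus6 have all 3 MDP CD103 high arrays above every other array, and Haus2 shows no such gap.

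Other genes of centriole assembly were taken from a list of 24. None of 24 passed between the MDP subsets in limma (7 at an unadjusted p under 0.05, against 10.2% of all genes), with a median of 0.13, and Rttn, which elongates new centrioles, was nearest (0.53 ± 0.11 SE, limma adjusted p = 0.0547). Against PBS CD103 high cells 21 of the 24 differences were above 0 (46.3% of all genes). Of the 24, 4 passed, all higher, where 1.42% of all genes were called higher. These were Rttn (0.65 ± 0.11, limma adjusted p = 0.0118), Cep44 (0.58 ± 0.11, limma adjusted p = 0.0166), the spindle and centriole protein Spice1 (0.40 ± 0.08, limma adjusted p = 0.0318) and Trim37, a ubiquitin ligase that limits centrosome protein assembly (0.38 ± 0.07, limma adjusted p = 0.0154). The count of 4 became 0 when MDP CD103 high replicate 2 or 3 or PBS CD103 high replicate 5 was left out, and 1 when PBS CD103 high replicate 6 was.

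The matrix around the centrioles nucleates microtubules through rings of gamma-tubulin. Of 15 measured genes of this kind none passed between the MDP subsets in limma (5 at an unadjusted p under 0.05, against 10.2% of all genes), and Tubg1, which encodes gamma-tubulin itself, was nearest (0.54 ± 0.11 SE, limma adjusted p = 0.0529). The median was 0.11, and it was 0.07 without MDP CD103 low replicate 1 or MDP CD103 high replicate 4, but 0.19 when MDP CD103 low replicate 2 was left out. Against PBS CD103 high cells 14 of the 15 differences were above 0 (46.3% of all genes). Of the 15, 3 passed, all higher, where 1.42% of all genes were called higher. These were Tubg1 (0.48 ± 0.11, limma adjusted p = 0.0472) and the ring subunits Tubgcp6 (0.41 ± 0.08, limma adjusted p = 0.0168) and Tubgcp2 (0.39 ± 0.07, limma adjusted p = 0.015). That count of 3 was 0 without MDP CD103 high replicate 3 or PBS CD103 high replicate 5 or 6, and 1 without MDP CD103 high replicate 2 or 4.

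Genes of the appendages of the older centriole and of the linker between centrosomes had medians of 0.06 between the MDP subsets and 0.09 against PBS CD103 high cells. The first was 0.01 without MDP CD103 high replicate 3, 0.10 without replicate 2 of that group and 0.04 with arrays centred on their median, and the second was 0.15 without MDP CD103 high replicate 2. None of 17 measured passed between the MDP subsets in limma (4 at an unadjusted p under 0.05, against 10.2% of all genes), where Kif24 was nearest (0.56 ± 0.11 SE, limma adjusted p = 0.051). Kif24, a kinesin that acts with the centriole cap protein CP110, rose against PBS CD103 high cells (0.65 ± 0.11, limma adjusted p = 0.0129), as did Cep128 of the subdistal appendages (0.57 ± 0.09, limma adjusted p = 0.00863). These 2 of the 17 were called higher there, as 1.42% of all genes were. That count of 2 became 0 when PBS CD103 high replicate 6 was left out, and 1 without MDP CD103 high replicate 2 or 3 or PBS CD103 high replicate 5.

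Genes of spindle assembly and of spindle poles spread widely. Between the MDP subsets the median was 0.35, and 24 of the 27 differences were above 0 (45.7% of all genes). Of the 27, 2 passed, both higher, where 0.473% of all genes were called higher. These were Spag5 (0.91 ± 0.17 SE, limma adjusted p = 0.034) and Nusap1 (0.82 ± 0.16, limma adjusted p = 0.0401), both of which bind spindle microtubules. Both calls were lost without any 1 of the MDP CD103 high arrays, and when MDP CD103 low replicate 1, PBS CD103 high replicate 5 or PBS CD103 low replicate 1 or 4 was left out, and also with the Xist class as a covariate or in a fit limited to the 6 MDP arrays. Over the list, where other genes may pass, the count of 2 became 0 in these cases except without MDP CD103 high replicate 4, where it was 1. It was also 1 without MDP CD103 low replicate 2 or 3 or PBS CD103 low replicate 3, and with arrays centred on their median. Against PBS CD103 high cells 7 of 27 passed, all higher, where 1.42% of all genes were called higher. The median was 0.40, and 23 of the 27 differences were above 0 (46.3% of all genes). The largest of the 7 were Kif11, the motor that pushes the poles apart (0.89 ± 0.19, limma adjusted p = 0.0354), Spag5 (0.81 ± 0.17, limma adjusted p = 0.029) and Tacc3, which stabilises spindle microtubules (0.79 ± 0.15, limma adjusted p = 0.0218). The count of 7 was 0 without MDP CD103 high replicate 2 or 3 or PBS CD103 high replicate 5 or 6, 4 without PBS CD103 low replicate 1, 3 or 4, and 11 without MDP CD103 low replicate 1.

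**Figure D4:**
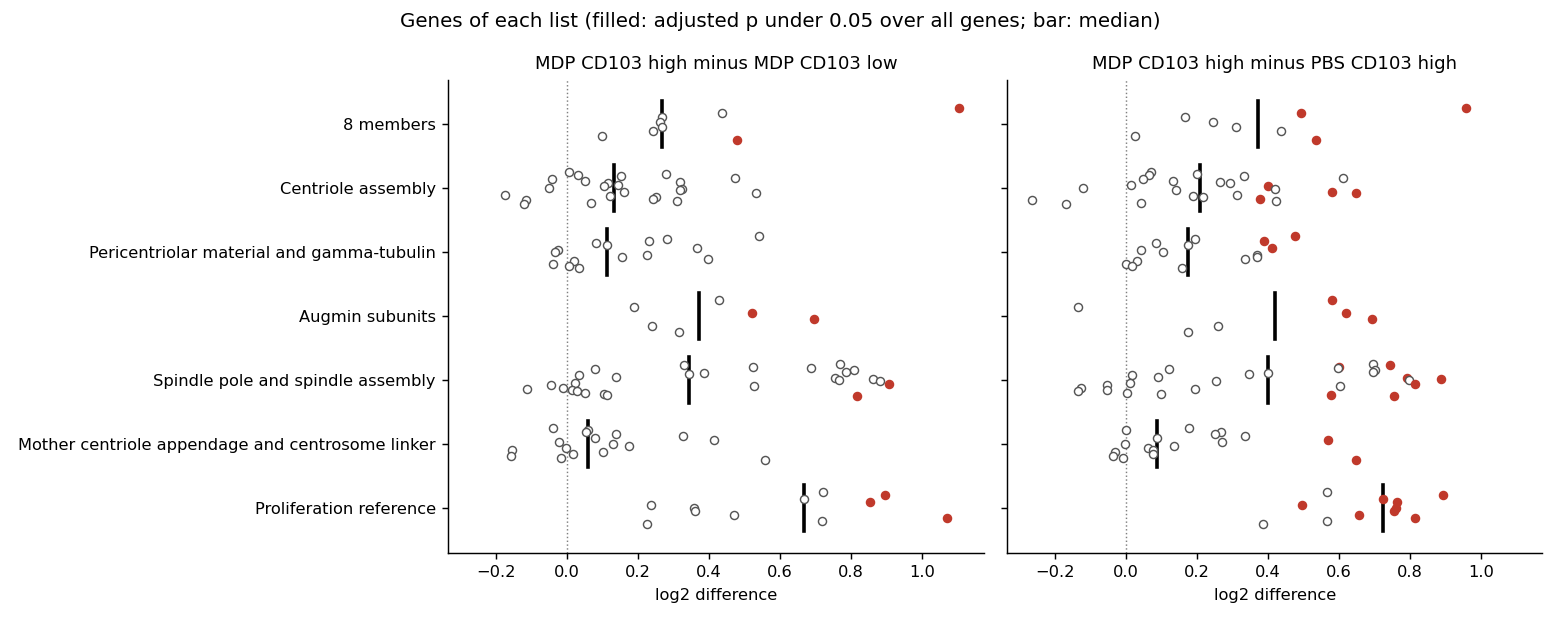
Log2 difference of each gene (dots) of the 8 members and of 6 lists (rows) in the 2 comparisons that involve MDP CD103 high cells (panels), filled where the adjusted p was under 0.05 over all genes, with the median of each list as a bar. The medians of the appendage and linker list lie nearest 0, at 0.06 and 0.09, and those of the proliferation genes farthest from it, at 0.67 and 0.72.

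The measured general proliferation genes also had higher means in MDP CD103 high cells than in MDP CD103 low and PBS CD103 high cells. Of 11 measured, 3 were called higher in MDP CD103 high than in MDP CD103 low cells (median 0.67), as 0.473% of all genes were. Against PBS CD103 high cells 8 were called higher (median 0.72), as 1.42% of all genes were. All 11 differences were above 0 in both comparisons, against 45.7% and 46.3% of all genes. Rrm2, which makes DNA precursors, was higher by 1.07 and 0.81 in these comparisons, and Top2a, which untangles DNA, by 0.89 in both. The first count was 1 and its median 0.44 without MDP CD103 low replicate 1, 1 also without MDP CD103 high replicate 4, MDP CD103 low replicate 3, PBS CD103 high replicate 5 or PBS CD103 low replicate 3 or 4, and 0 without MDP CD103 high replicate 2 or 3. In the same way the second count was 0 without MDP CD103 high replicate 2 or 3 or PBS CD103 high replicate 5 or 6. The mean of the 11 genes was 9.34 to 9.48 in MDP CD103 high cells, 8.55 to 8.99 in MDP CD103 low cells, 8.59 to 8.96 in PBS CD103 high cells and 8.75 to 9.02 in PBS CD103 low cells. In these bulk samples a larger share of cycling cells and more of a transcript per cell cannot be told apart. The part of proliferation in the differences of the 8 genes was not tested.

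The genes of mature, CCR7-positive dendritic cells ran the other way. Of 14 listed 13 were measured, and 1, Ccl17, lay below the background value. Their mean was 6.84 to 7.20 in MDP CD103 high cells, 7.62 to 8.82 in MDP CD103 low cells, 7.73 to 8.12 in PBS CD103 high cells and 7.53 to 7.79 in PBS CD103 low cells. Ccr7 itself, the receptor that guides cells to T cell zones, had 7.41, 7.24 and 7.85 in MDP CD103 high cells and 10.37, 8.58 and 8.84 in MDP CD103 low cells. It was 9.04 to 9.58 in PBS CD103 high and 8.85 to 8.99 in PBS CD103 low cells, and so lowest in all 3 MDP CD103 high arrays. Between the MDP subsets 3 of the 13 were called lower and none higher (median -0.62, and -0.27 without MDP CD103 low replicate 1). Against PBS CD103 high cells 4 were called lower (median -0.82), and Ccr7 and the chemokine Ccl5 were called in both. None of the 13 differences lay above 0 in either comparison, against 45.7% and 46.3% of all genes. Of all 22180 genes, 116 were called between the MDP subsets, 105 of them higher. Against PBS CD103 high cells 403 were called, 315 of them higher. The counts of 3 and 4 mature genes ranged from 0 to 4 and from 0 to 8 with 1 array left out. The highest was that without MDP CD103 low replicate 1 in the second comparison. Both were 0 without MDP CD103 high replicate 2 or 3, and the second also without PBS CD103 high replicate 5 or 6. The array with the highest mature mean, MDP CD103 low replicate 1, had the lowest Stil of all 13 arrays. Plk4, at 7.95, was lower there than on any array but PBS CD103 high replicate 6. The other 7 genes were not all low there, since Haus4, at 7.99, had its highest MDP CD103 low value on that array. The mean of the 8 genes was 7.37 on that array and lowest, at 7.36, on PBS CD103 high replicate 6.

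**Figure D5:**
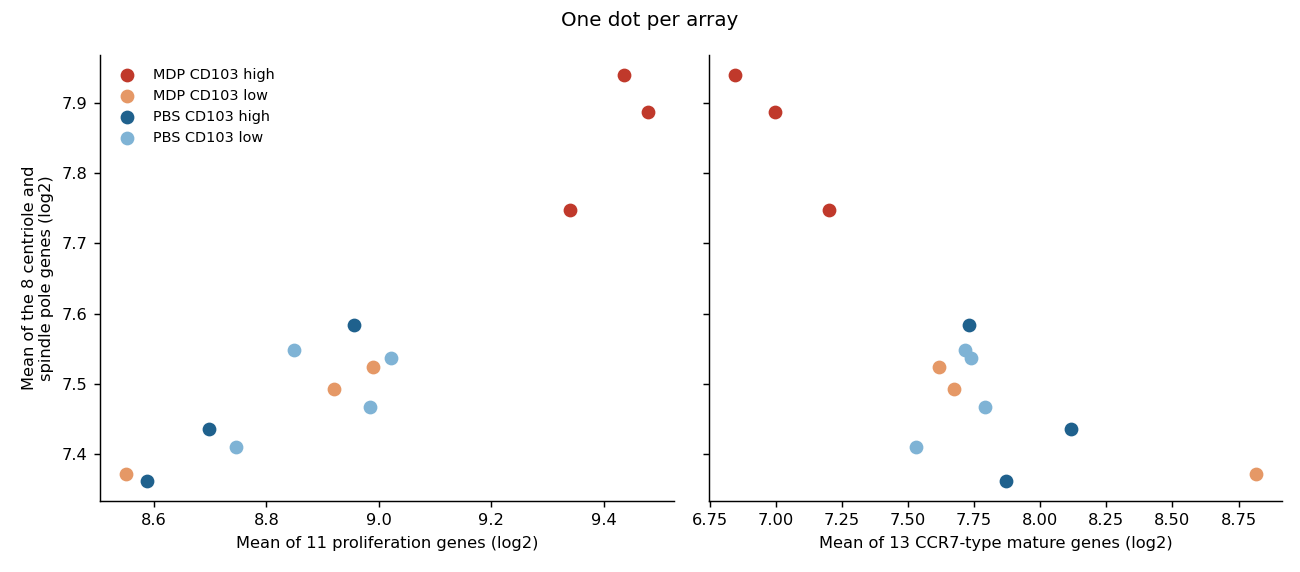
Mean log2 value of the 8 genes (vertical axis) against the mean of 11 proliferation genes (left) and of 13 genes of mature dendritic cells (right) on each of the 13 arrays (dots, coloured by group). The 3 MDP CD103 high arrays lie at 7.75 to 7.94 for the 8 genes and the 10 others at 7.36 to 7.58, and MDP CD103 low replicate 1 stands at the far right of the right panel.

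The 8 genes did not vary as a block. Over the 13 arrays, which share the 4 groups, the Pearson correlation of Stil with Plk4 was 0.954, and it was 0.90 between their deviations from the group means. Stil and Cep152 had 0.658 for the levels and -0.04 for the deviations. Cep135 had between 0.116 and 0.42 with the other 7 genes. With the mean of the standardised 8 genes, Haus4 correlated at 0.942, Stil at 0.932 and Plk4 at 0.926, and Cep135 at 0.487.

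The genes outside the 8 whose pattern over the 13 arrays was most like that mean were Diaph3 (Pearson r = 0.983), Cenph (0.957), Ect2 (0.956), Foxm1 (0.955), Nuf2 (0.953), Gmnn (0.953), Kntc1 (0.945) and Brip1 (0.944). Diaph3 is a formin that assembles actin, Cenph, Nuf2 and Kntc1 are kinetochore proteins, Ect2 drives cytokinesis, Foxm1 is a transcription factor of the G2 phase, Gmnn is an inhibitor of replication licensing and Brip1 a repair helicase. Diaph3 averaged 7.77 in MDP CD103 high, 7.13 in MDP CD103 low, 7.08 in PBS CD103 high and 7.18 in PBS CD103 low cells. The 13 points share the 4 groups, and for each of these genes the MDP CD103 high mean was the highest, so that the correlations are not independent of the group differences.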

How the data were processed

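RNA of 13 sorted cell samples was measured on Affymetrix arrays after pre-amplification of 400 ng, per the labels' protocols. Values were used as deposited, on the log2 scale, after RMA by the authors in the program Affymetrix Expression Console, per the submitters' processing notes. The sources used here give no version and no genome build. RMA sets the arrays to like distributions, so a change shared by most genes would be removed. Array medians lay between 5.00 and 5.13, and 0 pairs of arrays were identical.

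The probe table names 1 gene for 23521 of the 41345 probe sets, several for 1814 and does not list 16010. The first kind gave 22180 genes, with the probe set of the highest mean for each, and none was filtered out. The 4 group means were estimated from all arrays with limma 3.58.1 (R 4.3.3; lmFit, contrasts.fit, eBayes), and two-sided p-values had the Benjamini-Hochberg adjustment over all genes, with a threshold of 0.05. Intervals are 95% intervals from that fit. The fit was tested on simulated data. The number of arrays limits the precision.

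The members, lists and rules for naming genes were chosen with earlier results of these data known. Named were the 8 members, all measured augmin subunits, up to 3 called genes in each direction from each other list in both main comparisons (or the gene with the smallest p), the 8 genes most like the members, Itgae, Ccr7, Ccl5 and Xist. Trim37, the remaining call of its list, and the called markers Cd300c, Pacsin1, Fcrla and Sirpa were named after their values were seen. Protein sequences were not used here.

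Same-numbered arrays of a treatment deviated together: over 11090 genes the correlations of their deviations from the group means were 0.33, 0.196, 0.283 and 0.372, and each pair had the same Xist class. Alternatives were a variance trend, array weights, replicate blocks, other arrays in the fit, another probe set rule, a filter on low values, median centring, the Xist class as a covariate, and leaving out each array.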

Additional observations from a re-analysis of the deposited data

Results flagged for a closer look

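In PBS CD103 low cells, 2 values stood far from the other 3 arrays of their group, as about 1 group in 20 does by chance. PBS CD103 low replicate 6 had the lowest Stil of its group, at 7.41, against 7.68, 7.68 and 7.72. The same array had the highest Cep152 of its group, at 6.61, against 6.50, 6.50 and 6.50. For each gene 2 of the other 3 arrays held 1 repeated value, which makes the spread of those arrays small.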

How the results depend on the processing

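The number of the 8 genes past the threshold was the same or within 1.5 times in most alternatives, with these exceptions. Between the MDP subsets the count was 2, and it was 0 in a fit limited to the arrays compared and 0 to 2 with 1 array left out. For MDP against PBS in CD103 high cells the count of 3 was 1 to 4 with 1 array left out. For the interaction the count of 0 was 1 with a variance trend and robust fit, 1 with a replicate block within a treatment, 2 with only genes above the olfactory receptor range, and 0 to 2 with 1 array left out. It was 0 in every alternative run for PBS CD103 high and for MDP CD103 low against PBS CD103 low cells. The replicate block within a treatment changed no other call of the 8 genes, and a block over both treatments, where same-numbered arrays had correlations from -0.236 to 0.45, changed none. The number of genes called over all 22180 was 116 between the MDP subsets and 190 with the block within a treatment, and for the interaction 16 and 41. Alternatives for the pathway lists were applied after seeing the data. Between the MDP subsets, the lists of centriole assembly, pericentriolar and appendage genes with a count of 0 had 1 to 2 with a variance trend, with array weights, with either block or with only genes above the olfactory receptor range, and the last of these gave 6 spindle genes in place of 2. Comparison of protein sequences was planned and not run. With 3 or 4 arrays a group, differences near the median SE of 0.103 to 0.151 were not detectable.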

Other observations

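Values of the RMA table can repeat between arrays. Cep152 had the value 6.50 to 4 decimals alike on 4 arrays, namely MDP CD103 high replicate 4, MDP CD103 low replicate 3 and PBS CD103 low replicates 3 and 4. Stil had the same value on PBS CD103 low replicates 1 and 3. A value shared by at least 4 arrays occurred in 11.6% of all genes, and by at least 2 arrays in 44.3%.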
